A study of Homo sapiens with 6 samples.

Results

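Interferon-stimulated genes are the genes that cells switch on when interferons bind their receptors, and 47 of them were followed here by symbol in a table of read counts for 22681 human genes. Their list was chosen with earlier results of these data known. It covers RNA and DNA sensors, the OAS, IFIT and IFITM families, antiviral GTPases, the ISG15 conjugation system, transcription factors and other effectors. All 47 were found in the table, and 46 had enough reads to be tested. The cells were TPC-1-Len, a lenvatinib-resistant derivative of TPC-1, an established human papillary thyroid carcinoma line. Lenvatinib is an inhibitor of several receptor tyrosine kinases, and both groups were grown in 10 µM of it throughout. Cultures had received, by liposomal transfection, a non-targeting hairpin (shNC, 3 libraries) or a hairpin against KRT15, a keratin of basal epithelial cells (shKRT15, 3 libraries). The study asked which genes KRT15 controls in the resistant cells. Every culture came from 1 resistant line, drug-sensitive or untransfected cells were not analysed here, and the labels give neither the time of harvest nor whether the replicates were transfected separately. The p-values therefore measure the spread between these cultures, which may be technical.

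Cells sense foreign or misplaced nucleic acid with helicases such as RIG-I (DDX58) and MDA5 (IFIH1) or with the cGAS-STING pathway, and the relay through TBK1 and IRF3 turns on interferon genes. Secreted type I and type III interferons bind receptors on the same or neighbouring cells, and JAK1 and TYK2 then activate STAT proteins such as STAT2, which joins IRF9 in the complex ISGF3. ISGF3 binds the interferon-stimulated response element (ISRE) in the promoters of its target genes, whereas the gamma-activated site (GAS) serves the response to interferon gamma. Many of these genes also keep a basal level of expression without added interferon, and a standing interferon signature is common in tumour cell lines.

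The promoters of the members are shown first because the ISRE is the sequence through which ISGF3 acts. The ISRE core searched for was GAAA, any 2 bases, then GAAA, on either strand (TTTC, any 2 bases, TTTC in reverse). The GAS core was TTC, any 3 bases, then GAA, which reads the same on both strands. Promoter windows from RefSeq (GRCh38.p14) were matched for 38 of the 47 members, and the 250 bases before each start were searched. An ISRE core stood in 22 of the 38 members (57.9%), against 3.56% of the 11518 tested genes with a window. A GAS core stood in 11 of 38 members (28.9%), against 7.61% of tested genes. The stretches printed here run 5′ to 3′ on the gene's strand, with ISRE cores in capitals, and were picked to set members that rose beside members that fell or were not called. The first 6 belong to members that were higher in shKRT15, at chr1:78620254-78620323 (IFI44L, plus strand), chr14:94110611-94110677 (IFI27, plus), chr10:89392490-89392545 (IFIT1, plus), chr12:112938301-112938351 (OAS3, plus), chr4:88457015-88457084 (HERC5, plus) and chr1:27672246-27672315 (IFI6, minus).
IFI44L: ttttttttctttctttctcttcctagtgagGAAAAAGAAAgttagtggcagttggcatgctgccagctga
IFI27: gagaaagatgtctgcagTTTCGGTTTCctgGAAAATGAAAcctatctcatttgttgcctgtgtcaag
IFIT1: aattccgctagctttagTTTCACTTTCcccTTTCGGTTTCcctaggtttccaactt
OAS3: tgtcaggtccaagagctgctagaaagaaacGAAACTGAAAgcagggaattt
HERC5: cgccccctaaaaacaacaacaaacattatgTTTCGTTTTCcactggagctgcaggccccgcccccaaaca
IFI6: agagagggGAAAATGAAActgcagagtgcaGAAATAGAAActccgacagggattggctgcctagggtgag

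The next stretches belong to IFI44 (chr1:78649741-78649788, plus) and DDX60 (chr4:168318808-168318870, minus), which were lower in shKRT15, and then to ISG15 (chr1:1013360-1013422, plus), IFIH1 (chr2:162318798-162318839, minus) and SAMD9 (chr7:93118076-93118145, minus), which did not pass the test. The capitals of ISG15 cover 2 overlapping cores.
IFI44: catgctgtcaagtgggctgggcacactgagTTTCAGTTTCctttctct
DDX60: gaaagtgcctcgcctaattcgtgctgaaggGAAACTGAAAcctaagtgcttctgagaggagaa
ISG15: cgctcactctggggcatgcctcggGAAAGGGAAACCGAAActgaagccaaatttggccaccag
IFIH1: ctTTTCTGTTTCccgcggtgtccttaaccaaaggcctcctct
SAMD9: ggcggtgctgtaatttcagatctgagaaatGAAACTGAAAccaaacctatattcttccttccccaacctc

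The core is thus present in members of all 3 kinds, and a match is only a run of letters, not a measured binding site. Of the 22 tested members with an ISRE core, 14 were called higher, 2 lower and 6 not, with a median log2 fold change of 0.58. Among the 15 tested members whose window held none, 8 were higher, 3 lower and 4 not called, with a median of 0.33. For the GAS core the counts were 6, 2 and 3 of 11 with it (median 0.51) and 16, 3 and 7 of 26 without it (median 0.36). Outside the members, 21.6% of the 388 other tested genes with an ISRE core were called higher and 27.3% lower, against 22.0% and 22.6% of the 11093 without one. These shares are descriptions and were not tested.

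Read totals were 36286059 to 36808695 in the shNC libraries and 39868231 to 41343780 in the shKRT15 libraries. KRT15 itself stood at 28.7, 31.9 and 36.2 CPM (the read count scaled to library size with edgeR's TMM factors) in shNC and at 25.0, 24.3 and 24.9 CPM in shKRT15, so the targeted transcript fell by 23.4% (log2 fold change −0.38 ± 0.10 SE, adjusted p = 0.00465). The exact two-sided permutation p for KRT15 was 0.1, the smallest that 3 against 3 libraries allow. The contrast was broad: 45% of the 14356 tested genes were called at an adjusted p under 0.05, 22.1% higher and 23% lower in shKRT15, with a median log2 fold change of −0.0013. Of the markers of the labelled thyroid epithelial identity, PAX8 stood near 375 CPM in shNC and 410.4 CPM in shKRT15 and FOXE1 near 14.6 and 15.3 CPM. KRT7 stood at 23.4 and 22.9 CPM and KRT8 at 12.9 and 14.9 CPM. TG had the lower mean in shKRT15, with 60, 76 and 34 reads in shNC and 31, 28 and 41 in shKRT15. It did not pass (−0.97 ± 0.39, adjusted p = 0.0512), and its groups overlapped. EPCAM, CDH1, NKX2-1 and TSHR had at most 5 reads in any library. KRT18 rose from 116 to 215 CPM (0.89 ± 0.07, adjusted p = 1.37e-08), the 1 called of 6 tested epithelial and thyroid markers, and the list (10 of 12 in the table) summed to 535 to 551 CPM in shNC and 654 to 710 CPM in shKRT15. The summed levels of other cell types' markers also moved. Leukocyte markers (8 of 11 in the table) went from 210 to 212 CPM in shNC to 159 to 187 CPM in shKRT15. Of the 5 tested, 4 were called lower (80%, against 23% of all tested genes) and 0 higher (against 22.1%). LYZ, among those called lower, had enough reads to be tested only through the shNC libraries. It had 15, 24 and 19 reads in shNC and 1, 0 and 5 in shKRT15, so its fall adds little to that count. Most of the sum was LAPTM5, which did not pass (116 and 110 CPM), and CD68, which fell (87.9 to 59.6 CPM). PTPRC had 21, 5 and 17 reads in shNC and 0 in all 3 shKRT15 libraries, while CD14 stood at 0.178 and 0.162 CPM. Fibroblast markers (7 of 7) went from 22.2 to 26.4 CPM in shNC to 8.33 to 9.72 CPM in shKRT15. Of the fibroblast markers COL1A1, LUM and MFAP5 fell, while PDGFRB rose from 1.47 to 3.06 CPM (1.05 ± 0.26, adjusted p = 0.00337). Endothelial markers (4 of 5) summed to at most 2.10 CPM in any library. What part these shifts have in the results on the members was not tested, and in bulk libraries fewer cells of a type and less RNA per cell cannot be told apart.

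Most members were higher after the KRT15 hairpin. Of the 46 tested, 30 were called higher (65.2%, against 22.1% of all tested genes), 6 were called lower (13%, against 23%) and 10 did not pass. Their median log2 fold change was 0.44, against −0.0013 over all tested genes, and single members ran from −0.77 (IFI44) to 3.80 (MX2). MX2 passed the filter on low reads only through the shKRT15 libraries, and without it 29 of 45 were higher and 6 lower, with a median of 0.43. At least 2-fold higher and called were 11 of the 46 members, where 3.96% of all tested genes were. They were OAS1, OAS2, OAS3, IFITM1, IFITM2, IFITM3, BST2, MX2, IFI27, IFI44L and CMPK2. In the other direction 0 of 46 were called and at least 2-fold lower, where 4.99% of all tested genes were. The groups did not overlap in 36 of 46 members, against 54% of all tested genes: 30 stood higher (26.9% of tested genes) and 6 lower (27.1%).

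The 3 shKRT15 libraries moved together. The median member stood 0.45, 0.42 and 0.47 log2 units above the shNC mean in shKRT15 replicates 1, 2 and 3, and within 0.04 of it in each shNC library. In those shKRT15 libraries 36, 37 and 35 of the 46 members lay above the shNC mean. The summed CPM of the members was 6946 to 7156 in shNC and 8032, 8455 and 7714 in shKRT15. Replicate 2 of shKRT15 was the highest of its group for 24 members and replicate 3 the lowest for 22.

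**Figure D1:**
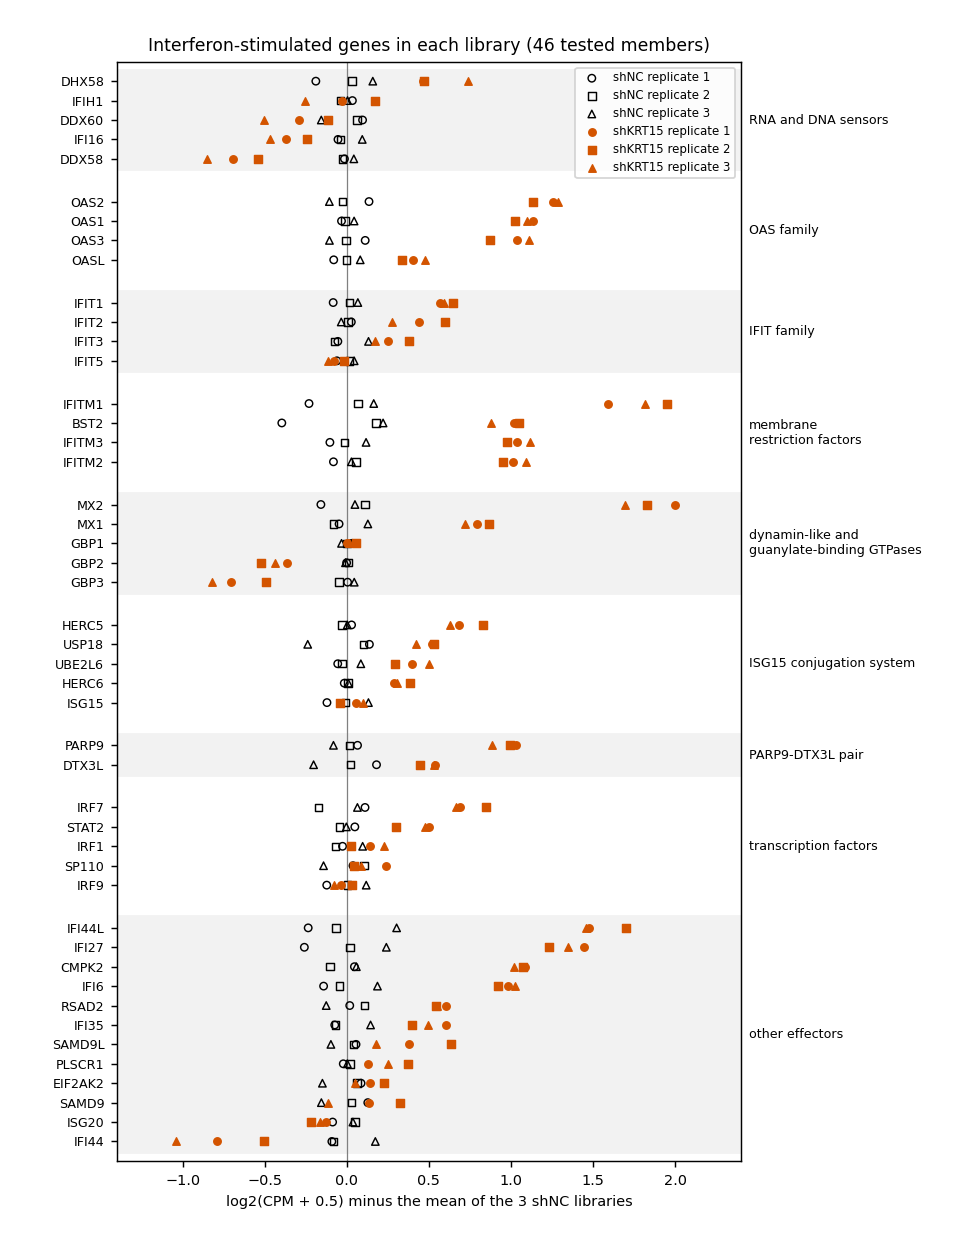
Each row is 1 tested member, grouped by role, and each point 1 library; the horizontal axis is log2(CPM + 0.5) minus the mean of the 3 shNC libraries. The shKRT15 points lie to the right of the shNC points for the OAS and membrane groups and to the left for DDX58, IFI16, GBP2, GBP3 and IFI44.

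Of the 5 sensors, 3 fell, 1 rose and 1 did not pass. DDX58, which encodes RIG-I, the helicase that detects RNA with triphosphate ends, stood at 487, 482 and 506 CPM in shNC and at 303, 338 and 272 CPM in shKRT15. Every shKRT15 library lay below every shNC library, and DDX58 fell by 38.1% (−0.69 ± 0.08, adjusted p = 1.58e-06). IFI16, a nuclear DNA sensor of the PYHIN family, had 164, 166 and 182 CPM in shNC and 132, 144 and 123 CPM in shKRT15. Its groups did not overlap either (−0.36 ± 0.08, adjusted p = 0.00101), and its log2 fold change was −0.17 once each library's trend with GC content and transcript length was removed. DDX60, a helicase that works alongside RIG-I, stood at 893, 872 and 750 CPM in shNC and 682, 771 and 588 CPM in shKRT15. Here the highest shKRT15 library exceeded the lowest shNC library.

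DDX60 was called lower (−0.30 ± 0.09, adjusted p = 0.0154), but 5 settings ended the call. These were total-count scaling (adjusted p = 0.0745) and the fits that left out replicate 1 (0.0605) or 2 (0.0702) of shNC, or replicate 1 (0.0599) or 3 (0.0829) of shKRT15. With the GC and length trend removed DDX60 was at −0.15 and still called. DHX58 encodes LGP2, a helper of the other helicases that lacks their signalling domains. It stood at 2.84, 3.40 and 3.75 CPM in shNC and 4.76, 4.77 and 5.86 CPM in shKRT15, without overlap, and rose (0.62 ± 0.19, adjusted p = 0.0135). That call was lost without shNC replicate 1 (adjusted p = 0.0517) or shKRT15 replicate 3 (0.0711). IFIH1, which encodes MDA5, the sensor of long double-stranded RNA, did not pass, with a log2 fold change of −0.03 and a 95% interval of −0.22 to 0.17.

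All 4 members of the OAS family rose. OAS1, OAS2 and OAS3 make short oligoadenylates on double-stranded RNA that activate RNase L, and OASL is a relative without that activity that acts on RIG-I. OAS2 stood at 52.5, 46.8 and 44.3 CPM in shNC and at 114.5, 105 and 117 CPM in shKRT15 (1.23 ± 0.08, adjusted p = 3.23e-09). OAS1 had 26.0, 26.4 and 27.4 CPM in shNC and 58.9, 54.5 and 57.3 CPM in shKRT15 (1.10 ± 0.08, adjusted p = 1.46e-08). OAS3 had 93.5, 86.2 and 80.3 CPM in shNC and 177.5, 158 and 187 CPM in shKRT15 (1.01 ± 0.08, adjusted p = 2.61e-08). In all 3 the lowest shKRT15 library lay above the highest shNC library. OASL, per kilobase the most abundant of the 4, went from 457 to 512 CPM across shNC to 611 to 672 CPM across shKRT15, a rise of 0.40 ± 0.07 (adjusted p = 0.000166).

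The IFIT proteins bind foreign RNA, and IFIT1, which recognises caps without host methylation, forms a complex with IFIT2 and IFIT3. IFIT1 stood at 662, 709 and 734 CPM in shNC and 1040, 1095 and 1057 CPM in shKRT15, where every library was higher (0.60 ± 0.07, adjusted p = 1.78e-06). IFIT2 had 588.5, 581 and 564 CPM in shNC and 782, 872.5 and 698 CPM in shKRT15 (0.44 ± 0.08, adjusted p = 0.000207). For IFIT3 the values were 605, 596 and 689 CPM in shNC and 748, 817 and 708 CPM in shKRT15, a narrow gap between the groups. IFIT3 rose by 0.27 ± 0.08 (adjusted p = 0.00977), and its call was lost without shNC replicate 2 (adjusted p = 0.078). IFIT5, which is not part of that complex, did not pass and stood at 37.8 to 42.3 CPM in all 6 libraries (−0.07, 95% interval −0.25 to 0.11). The genes of this family overlap LIPA on the genome, which had 28635 reads over the 6 libraries against 9253 for IFIT5 and 159701 or more for each of the other IFIT genes.

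All 4 membrane restriction factors rose. IFITM1, IFITM2 and IFITM3 hinder the fusion of viral and cell membranes, and BST2, also called tetherin, holds budding particles at the cell surface. IFITM3 stood at 152, 162 and 177 CPM in shNC and 335, 321 and 354 CPM in shKRT15 (1.04 ± 0.07, adjusted p = 6.15e-09). IFITM2 had 34.1, 37.5 and 36.8 CPM in shNC and 73.3, 70.3 and 77.4 CPM in shKRT15 (1.03 ± 0.08, adjusted p = 2.43e-08). IFITM1 had only 0.911, 1.24 and 1.35 CPM in shNC and 4.49, 5.89 and 5.32 CPM in shKRT15 (2.16 ± 0.23, adjusted p = 9.66e-07), a 4.48-fold difference. Near-identical sequence makes the split between these 3 genes uncertain: 42.3% of the 50-base stretches of IFITM1, 20.3% of IFITM3 and 15.8% of IFITM2 also occur in transcripts of other genes, mainly of each other. BST2 went from 2.35 to 3.87 CPM across shNC to 6.38 to 7.24 CPM across shKRT15 (1.06 ± 0.20, adjusted p = 0.000295) and shares no such stretch.

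The GTPases split by family. MX1 and MX2, dynamin-like proteins that trap viral nucleocapsids, rose, whereas GBP2 and GBP3, guanylate-binding proteins that attack pathogen vacuoles, fell. MX2 had 2, 6 and 5 reads in shNC and 81, 73 and 61 reads in shKRT15, a fitted 13.9-fold difference (3.80 ± 0.50, adjusted p = 8.53e-06) from a very low start. MX1 stood at 3.34, 3.26 and 3.84 CPM in shNC and 6.37, 6.73 and 6.03 CPM in shKRT15 (0.87 ± 0.17, adjusted p = 0.00047), without overlap. GBP3 had 79.7, 76.8 and 82.0 CPM in shNC and 48.5, 56.3 and 44.8 CPM in shKRT15 (−0.67 ± 0.09, adjusted p = 9.75e-06).

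GBP2 fell too, without overlap, at 77.5, 78.1 and 77.1 CPM in shNC and 60, 53.8 and 57.0 CPM in shKRT15 (−0.45 ± 0.08, adjusted p = 0.00015). Their relative GBP1 stood at 103 to 108 CPM in shNC and 106 to 110.0 CPM in shKRT15 and did not pass (0.02, 95% interval −0.12 to 0.17). Reads could be split between the GBP genes, since 17.6% of the 50-base stretches of GBP2, 13.3% of GBP1 and 3.44% of GBP3 occur in other genes' transcripts, chiefly other GBP genes and the pseudogene GBP1P1.

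ISG15, the ubiquitin-like protein that is attached to newly made proteins, did not pass, while the 4 other members grouped with it rose. ISG15 stood at 336, 363 and 401 CPM in shNC and 380, 356 and 392.5 CPM in shKRT15, so the groups overlapped (0.04, 95% interval −0.12 to 0.20). HERC5, the main ligase for ISG15, had 194, 186 and 191 CPM in shNC and 306, 339 and 295 CPM in shKRT15 (0.72 ± 0.07, adjusted p = 3.3e-07). UBE2L6, its conjugating enzyme, had 63.1, 64.3 and 69.7 CPM in shNC and 86.7, 80.6 and 93.1 CPM in shKRT15 (0.40 ± 0.08, adjusted p = 0.000588). HERC6, a relative of HERC5, had 91.0, 92.4 and 92.6 CPM in shNC and 112, 120.2 and 114 CPM in shKRT15 (0.33 ± 0.07, adjusted p = 0.001). In these 3 enzymes the groups did not overlap.

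USP18, which removes ISG15 and also dampens the type I receptor, rose from 15 to 19.7 CPM across shNC to 24.1 to 26.0 CPM across shKRT15 (0.49 ± 0.11, adjusted p = 0.00172), and 23.4% of its 50-base stretches occur in other genes' transcripts, chiefly of its copy USP41. PARP9 and DTX3L form a complex that modifies proteins with ADP-ribose and ubiquitin. PARP9 stood at 26.0, 25.1 and 23.4 CPM in shNC and 51.2, 50 and 46.3 CPM in shKRT15 (0.98 ± 0.09, adjusted p = 1.12e-07). DTX3L had 59.8, 53.6 and 45.7 CPM in shNC and 76.7, 71.9 and 76.4 CPM in shKRT15 (0.50 ± 0.09, adjusted p = 0.00031). Both partners were thus higher in every shKRT15 library, although their spans overlap at the genome and reads there could be counted for either.

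Of the 5 transcription factors among the members, 2 rose and 3 did not pass. IRF7, which drives interferon alpha genes, stood at 8.15, 6.60 and 7.87 CPM in shNC and 12.4, 13.9 and 12.2 CPM in shKRT15 (0.77 ± 0.13, adjusted p = 0.000147). STAT2 had 33.3, 31.2 and 32.1 CPM in shNC and 45.6, 39.7 and 44.9 CPM in shKRT15 (0.43 ± 0.09, adjusted p = 0.000792). For both the groups did not overlap. IRF1, a factor induced most by interferon gamma, had 64.1, 62.2 and 69.8 CPM in shNC and 72.1, 66.4 and 76.4 CPM in shKRT15, with overlap (0.13, 95% interval −0.04 to 0.30). IRF9, the DNA-binding part of ISGF3, was at −0.03 (95% interval −0.23 to 0.17), and SP110, a nuclear body protein, at 0.13 (−0.09 to 0.35). All of the 50-base stretches of IRF9 (100%) also occur in an overlapping gene model, AL136295.5, and SP110 overlaps SP140, so both values are uncertain.

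Among the other effectors, 8 of 12 tested rose, 1 fell and 3 did not pass. IFI6, a small membrane protein that hinders viral replication at the endoplasmic reticulum, stood at 42.4, 45.4 and 53.3 CPM in shNC and 93.1, 89.0 and 95.9 CPM in shKRT15 (0.98 ± 0.09, adjusted p = 1.17e-07). IFI27, a small relative of IFI6, had 9.77, 12 and 14 CPM in shNC and 33.0, 28.3 and 30.8 CPM in shKRT15 (1.37 ± 0.12, adjusted p = 1.27e-07). CMPK2, a mitochondrial nucleotide kinase, had 10.6, 9.49 and 10.7 CPM in shNC and 22.3, 22.1 and 21.2 CPM in shKRT15 (1.09 ± 0.11, adjusted p = 3.14e-07). In these 3 genes the lowest shKRT15 library was above the highest shNC library. IFI44L rose (1.64 ± 0.16, adjusted p = 3.54e-07), as did RSAD2 (0.56 ± 0.07, adjusted p = 8.31e-06), whose product viperin makes a chain-terminating nucleotide, IFI35 (0.51 ± 0.10, adjusted p = 0.000462) and SAMD9L, a restrainer of translation (0.41 ± 0.10, adjusted p = 0.00345). PLSCR1, a phospholipid scramblase, rose by 0.25 ± 0.08 (adjusted p = 0.0147), and lost the call without shNC replicate 2 (adjusted p = 0.05) or shKRT15 replicate 2 (0.0548).

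IFI44 was the 1 effector called lower, at 608, 612 and 730 CPM in shNC and 375, 456 and 314 CPM in shKRT15. No shKRT15 library reached the lowest shNC library, and IFI44 fell by 41.3% (−0.77 ± 0.12, adjusted p = 9.12e-05). EIF2AK2, the kinase PKR that halts translation on double-stranded RNA, was at 0.14 (95% interval −0.04 to 0.31), SAMD9 at 0.12 (−0.09 to 0.33) and the exonuclease gene ISG20 at −0.17 (−0.36 to 0.01), and none of these passed. ISG20 missed the threshold although its groups did not overlap, with 34.4 to 37.9 CPM in shNC and 31.4 to 33.5 CPM in shKRT15. XAF1, which binds the apoptosis inhibitor XIAP, was too sparse to test, with 0, 1 and 1 reads in shNC and 10, 0 and 6 in shKRT15. Its summed counts of 2 and 16 reads gave a ratio of 6.90 with a 95% interval of 1.62 to 61.9, which covers counting error only.

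**Figure D2:**
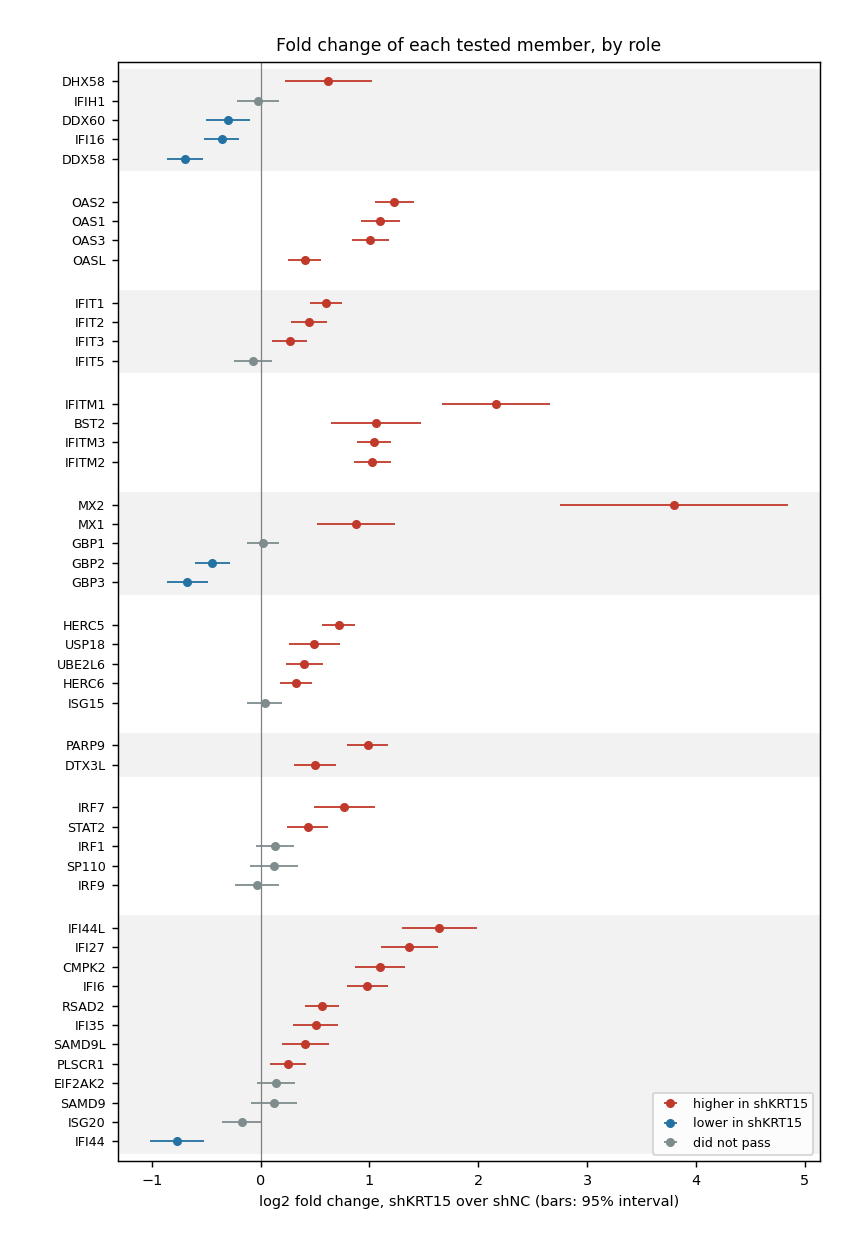
Points give the log2 fold change of shKRT15 over shNC for each tested member, grouped by role, with 95% intervals as bars and the call by colour. Of the 46 intervals, those of the 30 members called higher lie right of 0 and those of the 6 called lower lie left of it, from IFI44 at −0.77 to MX2 at 3.80.

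Several members sit side by side in the genome, and neighbours did not always move alike. With a gap of at most 100 kb allowed, 25 members formed 10 groups of neighbours (GRCh38). On chromosome 1, IFI44L (chr1:78620448-78646145) and the adjacent IFI44 (chr1:78649789-78664078), paralogs whose products carry a GTPase-like domain, went opposite ways: IFI44L stood at 3.34, 3.82 and 5.08 CPM in shNC and 12.1, 14.2 and 11.9 CPM in shKRT15, a rise of 1.64, and IFI44 fell by 0.77 on the log2 scale. Both promoters hold an ISRE core, and the pair has 37.8% (IFI44L) and 39.1% (IFI44) GC. No 50-base stretch of either transcript occurs in another gene's transcript. At the GBP locus on the same chromosome, GBP3 and GBP2 fell on either side of GBP1, which did not pass. All members at the OAS (chr12:112906962-113011723), IFITM (chr11:307816-320860), MX, HERC and PARP9-DTX3L loci rose, and so did CMPK2 and RSAD2, whose spans overlap on chromosome 2. In the IFIT group IFIT5, and in the SAMD9 pair SAMD9, were the members that did not pass beside neighbours that rose.

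Per kilobase of transcript, the members spanned a wide range of levels. In shNC the highest were ISG15 at 466 CPM per kb, IFI44 at 385, IFIT3 at 252 and IFITM3 at 202, and the lowest tested were MX1 at 1.00, IFI44L at 0.694 and MX2 at 0.0299. After the KRT15 hairpin the order at the top became ISG15 (478 CPM per kb), IFITM3 (417), IFIT3 (304), IFIT1 (231) and IFI44 (226). All 8 tested members with a mean level under 20 CPM were called higher, against 15.6% of all tested genes of that level. They include MX2, which had to be higher to pass the filter; without it the count was 7 of 7. From 20 to 100 CPM, 13 of 22 members were higher and 2 lower, where 26.7% and 27.1% of all genes were. Over 100 CPM, 9 of 16 were higher and 4 lower (DDX58, DDX60, IFI16 and IFI44), where 31.2% and 27.4% of all genes were. Spearman's correlation of the members' log2 fold change with their mean level was −0.46 (46 genes in 1 set of libraries, given as a description), −0.42 without MX2, and 0.03 over all tested genes.

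GC content moved with the fold changes, among the members as among all genes. Spearman's correlation of log2 fold change with transcript GC content was 0.39 over the 46 members and 0.26 over 13121 tested genes, as a description of genes that share the same 6 libraries. Below 42% GC, 4 of 12 members were higher and 5 lower (all genes: 11.1% higher, 38.9% lower). From 42 to 50% GC, 11 of 15 were higher and 1 lower (22.3% and 23.3%), and at 50% or more, 15 of 19 were higher and 0 lower (30.4% and 15.3%). The 6 members that fell had a median GC content of 39.5%, and the 30 that rose 49.97%. Libraries of 1 group differed along the same axis: within shKRT15 the members' deviations from their group mean correlated with GC at −0.61 in replicate 2 and 0.64 in replicate 3. After the GC and length trend of each library was removed, 32 of 46 members were called higher and 7 lower, and 43 kept their call. The 3 that gained one were EIF2AK2 (0.29, adjusted p = 0.000283), SAMD9 (0.33, adjusted p = 4.57e-05) and ISG20 (−0.32, adjusted p = 0.00178). PLSCR1 moved from 0.25 to 0.45 under that setting.

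**Figure D3:**
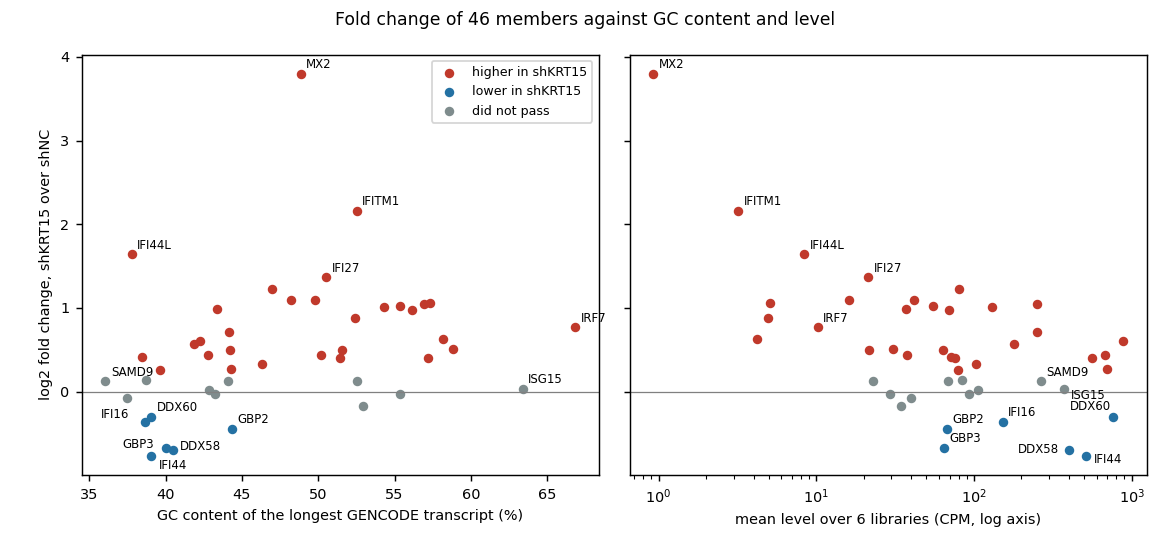
The log2 fold change of each of the 46 tested members is plotted against transcript GC content in percent (left) and against mean CPM on a log axis (right), with colours for the call. Of the 6 members called lower, 5 lie under 42% GC, and the 8 members under 20 CPM all lie above 0.

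Upstream of the members, the interferons themselves were barely expressed. Of 21 ligand genes listed, 7 were in the table and 3 could be tested, each passing the filter through 1 group only. IFNB1, the first type I interferon made by most infected cells, had 5, 3 and 6 reads in shNC and 23, 17 and 36 in shKRT15, and rose (2.21 ± 0.62, adjusted p = 0.00761), although not without shKRT15 replicate 3 (adjusted p = 0.0629). IFNL1, a type III interferon, had 10, 7 and 3 reads in shNC and 27, 36 and 35 in shKRT15, and rose as well (2.06 ± 0.56, adjusted p = 0.00588). IFNE, an epithelial type I interferon, fell from 14, 14 and 16 reads in shNC to 5, 4 and 1 in shKRT15 (−2.31 ± 0.71, adjusted p = 0.014), a call lost without shKRT15 replicate 3 (0.0728) and with no filter on low reads (0.0518). The groups did not overlap in any of the 3, as in 54% of all tested genes, but passing the filter through 1 group favours such a gap.

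Of the 9 receptor and JAK-STAT genes listed, 6 fell (66.7%, against 23% of all tested genes), 1 rose (11.1%, against 22.1%) and 2 did not pass, with a median of −0.29. Among the receptor chains 5 of 6 fell. IFNLR1, the specific chain for type III interferons, fell by 0.80 (adjusted p = 1.61e-05), the interferon gamma receptor chains IFNGR1 by 0.67 (2.35e-06) and IFNGR2 by 0.53 (8.56e-06), and the type I chains IFNAR2 by 0.31 (0.00439) and IFNAR1 by 0.26 (0.0164) on the log2 scale. IL10RB, the shared type III chain, was at −0.11 (95% interval −0.27 to 0.05). The call of IFNAR1 was lost with total-count scaling (adjusted p = 0.0753) and when replicate 1 (0.0615) or 2 (0.0562) of shNC, or replicate 1 (0.122) or 3 (0.0695) of shKRT15, was left out. JAK1 fell by 0.29 (adjusted p = 0.00501). TYK2 rose by 0.25 (0.0167), but not without shNC replicate 2 (0.0723), shKRT15 replicate 1 (0.0575) or 3 (0.0711), or with the GC and length trend removed (0.0632).

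In the relay that senses nucleic acid and induces interferon, 5 of 11 tested genes rose (45.5%, against 22.1% of all tested genes) and 4 fell (36.4%, against 23%), with a median of −0.12. The count that fell was 2 without shNC replicate 1 or 2 or shKRT15 replicate 1. STING1, the adaptor of the DNA-sensing pathway, stood at 41.9, 44.6 and 44.2 CPM in shNC and 102, 96.2 and 106 CPM in shKRT15 (1.22 ± 0.08, adjusted p = 1.44e-09). TRIM25, a ubiquitin ligase that acts on RIG-I, rose by 0.93 ± 0.07 (adjusted p = 2.34e-08). TICAM1, the adaptor of the receptor TLR3, fell by 0.82 ± 0.09 (adjusted p = 9.8e-07), and so did the kinase gene TBK1 (0.82 ± 0.10, adjusted p = 4.51e-06), on the log2 scale. Genes of this relay thus moved in opposite directions, as did DDX58 and its ligase TRIM25. Among 13 tested restrainers of interferon signalling 6 rose (46.2%, against 22.1% of all tested genes) and 2 fell (15.4%, against 23%), with a median of 0.21. The count that rose was 5 to 7 with 1 library left out. TRIM21, among those that rose (adjusted p = 0.0485), lost its call with size factors in place of TMM (0.0502), no filter (0.0764) or the GC and length trend removed (0.0619). It also did so without replicate 1 or 2 of shNC, or replicate 1 or 3 of shKRT15 (0.111 to 0.162). SOCS3, a feedback inhibitor of JAK kinases, fell by 0.93 ± 0.08 (adjusted p = 9.59e-08), whereas SAMHD1, which depletes nucleotides (1.00 ± 0.09, adjusted p = 1.22e-07), RNASEH2A, a subunit of an enzyme that clears RNA-DNA hybrids (0.87 ± 0.09, adjusted p = 7.31e-07), and ADAR, which edits double-stranded RNA (0.50 ± 0.08, adjusted p = 8.47e-05), rose. SOCS1, the other SOCS gene on that list, fell as well (−0.86, adjusted p = 0.00203).

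**Figure D4:**
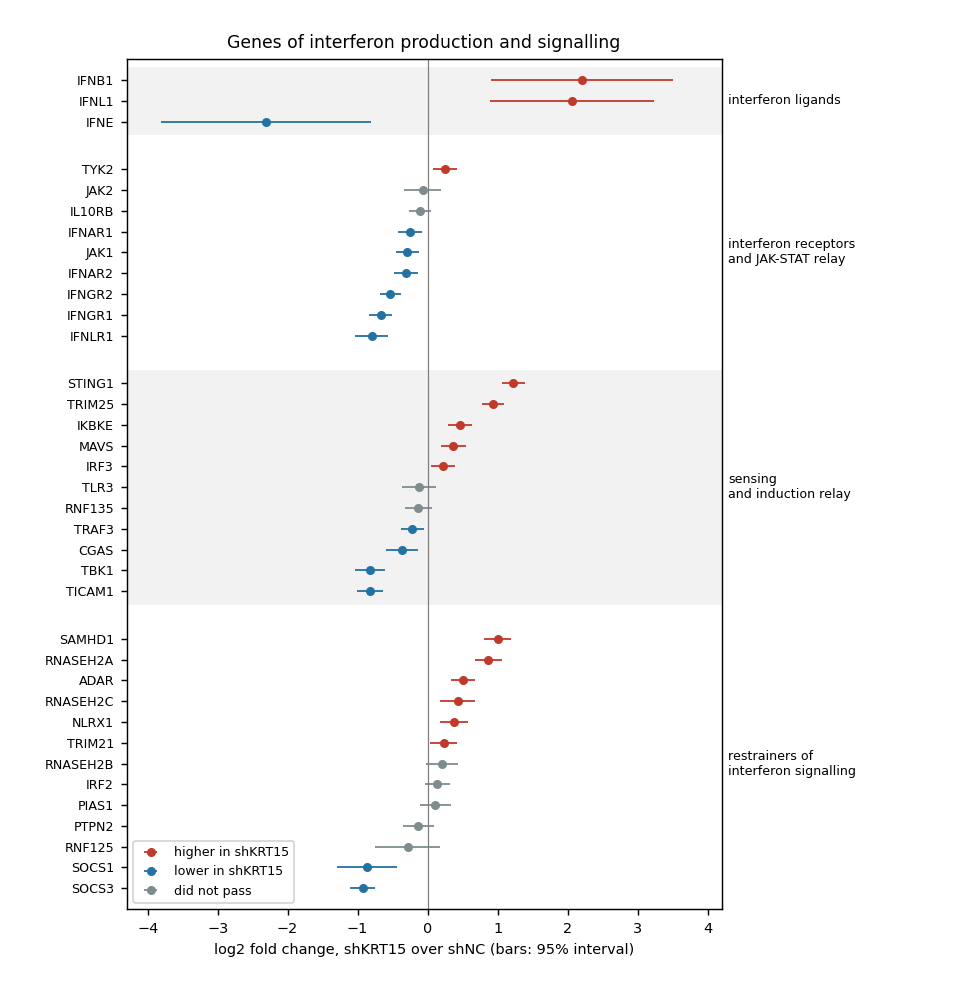
Points give the log2 fold change of shKRT15 over shNC, with 95% intervals, for tested genes of the ligand, receptor and JAK-STAT, sensing and restrainer lists, coloured by call. STING1 (1.22) and TRIM25 (0.93) lie right of 0, and the receptor chains from IFNLR1 (−0.80) to IFNAR1 (−0.26) lie left of it.

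A further list of 43 interferon-stimulated genes outside the 47, of which 2 (ADAR and TRIM25) also stand on the pathway lists, was set beside them. Of 38 tested, 18 were called higher (47.4%, against 22.1% of all genes), 3 lower (7.89%, against 23%) and 17 not, with a median of 0.25. With 1 library left out, 13 to 17 were higher and 2 to 5 lower (5 without shNC replicate 3). TNFSF10 (2, 1 and 19 reads in shNC) and BATF2 (4, 7 and 18) are among those called higher. Both passed the filter on low reads only through the shKRT15 libraries. The 4 with the smallest p-values were CCL5, TRIM25, TRIM14 and HELZ2. CCL5, a chemokine gene driven by interferon factors and by NF-kB, was lower, at 1821, 1970 and 2092 CPM in shNC and 471, 448 and 514 CPM in shKRT15. It fell 4.11-fold (−2.04 ± 0.08, adjusted p = 1.78e-12). TRIM14, an adaptor of mitochondrial antiviral signalling, had 19.5, 20.7 and 19.2 CPM in shNC and 46.6, 40.8 and 50.7 CPM in shKRT15, and rose (1.22 ± 0.10, adjusted p = 2.99e-08). HELZ2, a helicase, had 67.8, 61.7 and 56.6 CPM in shNC and 109, 96.0 and 116 CPM in shKRT15, also without overlap (0.79 ± 0.09, adjusted p = 1.57e-06). The difference between this list and the 47 members was not tested.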

How the data were processed

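RNA sequencing of 6 TPC-1-Len cultures gave 1 table of gene-level read counts, deposited by the authors as whole numbers. Libraries were made from purified mRNA after TRIzol extraction, per the labels' protocols. The genome build was GRCh38, per the submitters' processing notes, and the aligner, annotation, counting program and use of strand were not given in the sources used here. Genes on opposite strands that overlap can therefore share reads.

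Genes were filtered with filterByExpr (minimum count 10, minimum total 15), scaled by TMM and tested with edgeR 4.0.16's quasi-likelihood test in R 4.3.3, on the group alone, with Benjamini-Hochberg adjustment over 14356 genes and a threshold of 0.05. A standard error is the log2 fold change divided by the square root of its F. The script was tested on simulated data. Transcript length and GC content came from the longest GENCODE 29 transcript (91.4% of tested genes). Promoters came from RefSeq.

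Full values by library were given, in each role, for the 3 members with the smallest p-values and for members that fell. In each pathway list the 4 genes with the smallest p-values, IFNB1 and the receptors were named. 1 gene of the pathway lists is not reported here and was left out of their counts. The members and lists were chosen with earlier results of these data known, so the counts describe them and no list was tested. Replicate numbers were shared between groups, but same-numbered libraries did not deviate together (correlations 0.02, −0.01 and 0.05). No 2 libraries agreed within sampling noise. Alternatives were other scalings, DESeq2 1.42.0, limma-voom (limma 3.58.1), other filters, a replicate block, removal of the GC and length trend (lowess span 0.3), and leaving out each library.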

Additional observations from a re-analysis of the deposited data

How the results depend on the processing

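The counts of 30 members higher and 6 lower were the same with size factors, upper-quartile scaling, DESeq2, limma-voom, no filter, a minimum of 1 CPM in 3 libraries and the replicate block, for which no pairing is stated. They were 30 and 5 with total-count scaling, 32 and 7 with the GC and length trend removed, with or without the block, and 28 to 30 and 5 to 6 with 1 library left out. The members' median was 0.50 with total-count scaling and 0.43 to 0.50 with 1 library left out. Of 1387 single-gene alternatives 1307 kept direction and side of the threshold, 49 lost a call, 13 gained one and 18 reversed, all in genes not called: with total-count scaling IFIH1 (0.035) and IRF9 (0.029); with the GC trend removed, and with the block added, IFIH1 (0.022, 0.017), IFIT5 (0.15, 0.16), IL10RB (0.088, 0.081), JAK2 (0.089, 0.086), TLR3 (0.064, 0.063) and PTPN2 (0.031, 0.038). With 1 library left out, IFIH1 ran from −0.13 to 0.078, ISG15 from −0.018 to 0.10, IRF9 from −0.086 to 0.029 and JAK2 from −0.20 to 0.036. The GC setting left 0 receptor and JAK-STAT genes and 3 sensing genes higher, with and without the block: STING1 has no GC value and was not in that fit, and IRF3 lost its call. With no filter 0 ligands were lower, and with 1 CPM 0 were higher and 0 lower, since fewer genes were tested. With 1 library left out, 1 to 2 ligands were higher and 0 to 1 lower. In the same fits 0 to 1 receptor and JAK-STAT genes were higher and 2 to 4 sensing genes lower. These fits also called 13 to 17 other interferon-stimulated genes higher and 2 to 5 lower, and 5 to 7 restrainers higher. The cause of the other shifts was not tested. Searching all 300 bases of each window found an ISRE core in 25 members and a GAS core in 12. Protein identity was not run. XAF1 and 4 of the 7 ligands in the table had too few reads to be tested.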

Other observations

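Interferon genes too sparse to test differed between single libraries. IFNA5 had 4 reads and IFNA8 had 8 reads in shNC replicate 1, and both had 0 in the other 5 libraries. IFNL2 had 0 reads in each shNC library and 2, 1 and 2 reads in shKRT15, and IFNL3 had 0, 1 and 1 reads in shNC and 1, 5 and 2 in shKRT15. The DNA sensors ZBP1 and AIM2 had at most 6 reads in any library.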
